A study of Mus musculus with 15 samples.

Results

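The brush-border peptidases and amino acid transporters described here are 7 genes: the peptidases Anpep, Enpep, Dpp4 and Ace, and the transporter genes Slc6a19, Slc6a20a and Slc3a2. They were taken by name from the 4178 genes of the deposited expression table, and all 7 were found there. They were picked with earlier results of the same data known, in which they were higher in colonized mice, so their own differences between groups are given as a description, without a test.

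The libraries are bulk RNA from the ileum, where the small intestine ends, and the donors were adult germ-free C57BL/6 mice. Each mouse received 200 µl by gavage, which held sterile phosphate-buffered saline (PBS), Ruminococcus gnavus (RG) or Lactobacillus rhamnosus GG (LGG, named Lacticaseibacillus rhamnosus GG in the protocol), and the tissue was taken 21 days later. There were 5 mice in each of the 3 groups and 1 library per mouse. The RG and LGG mice thus carried a single bacterial species each, the PBS mice stayed germ-free, and the labels give neither sex, cage nor litter.

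Dietary protein is cut by pancreatic and gastric enzymes into short peptides, which peptidases anchored in the microvilli of enterocytes, the absorptive cells of the villus, trim to amino acids and very short peptides. Sodium-coupled transporters of the same apical membrane carry the amino acids into the cell, peptides that enter are split by peptidases of the cytosol, and heteromeric transporters of the basolateral membrane pass amino acids on towards the blood. This machinery is a product of differentiated enterocytes and is known to be dense in the jejunum and ileum.

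In each of the 7 genes, all 5 RG mice were above all 5 PBS mice, and all 5 LGG mice were above all 5 RG mice. Mean levels in TPM (transcripts per 1e+06 transcripts, a level scaled by transcript length and by the library's sum) were 1.68 to 2.18 times those of PBS in RG, and 3.78 to 10.4 times those of PBS in LGG. Of the 3530 genes tested, 9.58% showed this order of PBS, RG and LGG with no overlap. The pairwise backgrounds were 13.0% for RG above PBS, 53.0% for LGG above PBS and 36.4% for RG below LGG. Since the genes were picked on these contrasts, nothing is read from the 7 of 7. In bulk tissue, fewer cells of a type and less RNA per cell cannot be told apart.

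Most of the table moved the same way on this scale, which bears on the sizes below. The median log2 difference over all genes tested was 0.38 for RG minus PBS, 1.17 for LGG minus PBS and -0.72 for RG minus LGG. The 7 genes had medians of 0.90, 2.33 and -1.35. With each library rescaled by the median of its ratios to a common reference, the medians of the 7 genes became 0.54, 1.30 and -0.69, beside 0.04, 0.24 and -0.10 for all genes. Over all genes, limma called 804 higher and 144 lower for RG minus PBS as deposited and 45 and 642 after rescaling, 1932 and 582 against 1178 and 1406 for LGG minus PBS, and 289 and 1887 against 1220 and 592 for RG minus LGG. After that rescaling, 3 of the 7 genes kept RG above PBS in all mice (Anpep, Dpp4 and Ace). LGG stayed above PBS in 6 (all but Slc6a20a) and above RG in 2 (Anpep and Enpep). The share of all genes tested that kept such an order was not computed on the rescaled values, so nothing is read from these counts.

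The stretch of 250 bases before the RefSeq start is shown for Anpep, Dpp4 and Ace. In these genes both colonized groups stayed above PBS in all mice after that rescaling. With each library rescaled by its upper quartile instead, Enpep and Slc3a2 kept this order too. The sequences are from RefSeq on GRCm38.p6, written 5′ to 3′ along the gene's own strand, and all 7 genes matched an entry. The windows lie at chr7:79848211-79848460 on the minus strand for Anpep, chr2:62412232-62412481 on the minus strand for Dpp4 and chr11:105967698-105967947 on the plus strand for Ace, for which the more upstream of 2 starts was used. The Anpep start lies inside the longer span that GENCODE gives the gene. Capitals mark every match, on either strand, to one of 7 searched motifs: the HNF1 half-site GTTAAT, the GATA motif AGATAA, the CDX motif TTTATNG, the HNF4 motif CAAAGTCCA, the TATA box TATAAA, the GC box GGGCGG and the CCAAT box CCAAT.
Anpep: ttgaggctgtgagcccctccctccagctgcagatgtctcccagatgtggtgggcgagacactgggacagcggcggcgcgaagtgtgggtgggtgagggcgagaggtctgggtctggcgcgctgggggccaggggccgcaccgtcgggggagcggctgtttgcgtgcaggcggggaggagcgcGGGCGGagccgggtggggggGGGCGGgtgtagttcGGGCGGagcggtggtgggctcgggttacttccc
Dpp4: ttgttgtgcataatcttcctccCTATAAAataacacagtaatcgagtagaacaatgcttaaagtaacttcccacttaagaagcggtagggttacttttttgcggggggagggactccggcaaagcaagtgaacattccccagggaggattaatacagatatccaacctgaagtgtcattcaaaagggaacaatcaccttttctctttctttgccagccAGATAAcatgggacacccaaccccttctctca
Ace: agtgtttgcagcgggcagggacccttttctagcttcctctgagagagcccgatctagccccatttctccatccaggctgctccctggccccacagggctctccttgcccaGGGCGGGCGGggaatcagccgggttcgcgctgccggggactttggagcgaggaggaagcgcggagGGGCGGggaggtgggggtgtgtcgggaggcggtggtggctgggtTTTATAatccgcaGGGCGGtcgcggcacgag

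These windows differed in base composition, and no motif was found in all 3 of them. GC content was 72.8% for Anpep, 67.2% for Ace and 43.6% for Dpp4, beside a median of 52.4% over 32851 windows of the same length. Anpep held 3 GC boxes, which begin at -68, -48 and -33 relative to the start. Ace held 4 GC boxes, of which the pair at -140 and -136 overlap, and the TATA letters on the opposite strand at -31. Dpp4 held AGATAA at -32, and the CDX letters at -228 on the opposite strand overlap the TATA letters at -227. Of all windows, 32.7% held the GC box, 12.4% the TATA box, 33.8% the CCAAT box, 9.99% the GATA motif, 9.81% the CDX motif, 6.43% the HNF1 half-site and 0.384% the HNF4 motif. The GC box was found in 4 of the 7 genes, the TATA letters in 3, the CCAAT box in 2, the HNF1 half-site, the GATA motif and the CDX motif in 1 each, and the HNF4 motif in none. The CCAAT count includes Slc6a19, whose RefSeq start lies 8144 bases from the nearest GENCODE start of a coding transcript. A match is a description of letters, and a missing match says nothing about a factor.

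Anpep encodes aminopeptidase N, which takes neutral amino acids off the N-terminus of peptides, and lies on chromosome 7 from 79821803 to 79861059 (GRCm38, as all gene coordinates here). Its TPM in PBS mice 1 to 5 was 778, 751, 508, 637 and 836. In RG mice 1 to 5 it was 1137, 1691, 1329, 1321 and 1223, and in LGG mice 1 to 5 it was 3725, 4921, 3995, 3138 and 3630.1. PBS mouse 3 was the lowest mouse and LGG mouse 2 the highest, and the lowest LGG mouse stood well above the highest RG mouse. PBS averaged 702 ± 131, RG 1340.3 ± 211 and LGG 3882 ± 658 (SD, n = 5). On the log2(TPM + 1) scale RG minus PBS was 0.94, LGG minus PBS 2.47 and RG minus LGG -1.53, each with a standard error (SE) of 0.163. Anpep alone made up 51.4 to 60.8% of the summed TPM of the 7 genes in every mouse.

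Enpep encodes aminopeptidase A, which removes acidic residues from the N-terminus, and lies on chromosome 3 from 129269175 to 129332720. Its TPM was 265, 291, 205, 273 and 294 in PBS mice 1 to 5, and 369.7, 529, 450.2, 498 and 387 in RG mice 1 to 5. In LGG mice 1 to 5 it was 1141, 1086, 1144, 1046 and 1183. The LGG mice were close to each other, with a coefficient of variation (CV) of 4.79%, the smallest of any of the 7 genes in any group. RG minus PBS was 0.75, LGG minus PBS 2.08 and RG minus LGG -1.34 (log2, SE 0.133). The ratio of Enpep to Anpep was 0.382 ± 0.0365 (PBS), 0.334 ± 0.0259 (RG) and 0.295 ± 0.0451 (LGG) (SD, n = 5), where RG overlapped with both others, while the highest LGG mouse, at 0.333, lay below the lowest PBS mouse, at 0.340. How often ratios of genes separate LGG from PBS was not computed, so nothing is read from this.

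Dpp4 encodes dipeptidyl peptidase 4, which removes dipeptides from N-termini where proline or alanine follows the first residue, and lies on chromosome 2 from 62330073 to 62412231. Its TPM was 83.8, 102, 62.4, 73.7 and 84.3 in PBS mice 1 to 5, and 146, 204, 192, 135 and 132 in RG mice 1 to 5. In LGG mice 1 to 5 it was 425, 588, 442, 260.4 and 393. LGG mouse 4 was low among its group, nearer to the highest RG mouse than to the LGG mean. RG minus PBS was 0.98, LGG minus PBS 2.33 and RG minus LGG -1.35 (log2, SE 0.202). Dpp4 relative to Anpep stayed between 0.0830 and 0.144 in all 15 mice.

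Ace encodes angiotensin-converting enzyme, which cuts dipeptides off the C-terminus of peptides, and lies on chromosome 11 from 105967945 to 105989964. Its TPM was 30.1, 38.1, 19.2, 27.5 and 41.0 in PBS mice 1 to 5, and 64.4, 66.6, 75.3, 52.0 and 81.4 in RG mice 1 to 5. In LGG mice 1 to 5 it was 249.5, 865, 267, 99.5 and 133. LGG mouse 2 held 8.69 times the level of LGG mouse 4, and the CV in LGG was 96.4%, beside 27.9% in PBS and 16.5% in RG. RG minus PBS was 1.13, LGG minus PBS 2.94 and RG minus LGG -1.81 (log2, SE 0.424). These were the largest differences among the 7 genes as deposited, with the largest SE. That SE is drawn from the spread in all 3 groups together. The wide LGG values thus enter it for RG minus PBS as well, and it does not measure the spread of PBS and RG alone. With length and GC trends removed, Dpp4 exceeded Ace for RG minus PBS (0.93 against 0.84) and LGG minus PBS (2.25 against 2.16). For RG minus LGG, Ace was at -1.35 without LGG mouse 2, where Anpep was at -1.44. Without LGG mice 2 and 4, left out after the data were seen, LGG minus PBS was 2.74.

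Slc6a19 encodes the main sodium-coupled carrier of neutral amino acids in the intestinal brush border and lies on chromosome 13 from 73679745 to 73704865. Its TPM was 141, 159, 140.0, 146 and 146 in PBS mice 1 to 5, and 221, 222, 266, 247 and 317 in RG mice 1 to 5. In LGG mice 1 to 5 it was 723, 787, 726, 431 and 619.6. The PBS mice hardly differed, with a CV of 5.04%, and LGG mouse 4 was the lowest of the LGG mice. RG minus PBS was 0.78, LGG minus PBS 2.13 and RG minus LGG -1.35 (log2, SE 0.158).

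Slc6a20a encodes a sodium-coupled carrier of proline and other imino acids and lies on chromosome 9 from 123634770 to 123678885. Its TPM was 28.7, 41.8, 31.9, 34.4 and 35.6 in PBS mice 1 to 5, and 63.1, 56.9, 67.3, 52.1 and 75.8 in RG mice 1 to 5. In LGG mice 1 to 5 it was 137, 134, 144, 84.0 and 152. Of the 7 genes it had the smallest difference between LGG and either other group. RG minus PBS was 0.85, LGG minus PBS 1.87 and RG minus LGG -1.02 (log2, SE 0.166). Slc6a19 exceeded Slc6a20a by a ratio of 4.29 ± 0.416 (PBS), 4.06 ± 0.457 (RG) and 5.08 ± 0.655 (LGG) (SD, n = 5), with overlapping ranges.

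Slc3a2 encodes the heavy chain that heteromeric amino acid transporters need to reach the basolateral membrane, and lies on chromosome 19 from 8706882 to 8723369. Its TPM was 28.6, 36.5, 21.2, 33.4 and 34.4 in PBS mice 1 to 5, and 49.5, 79.8, 83.2, 44.2 and 42.7 in RG mice 1 to 5. In LGG mice 1 to 5 it was 179, 306, 162, 101 and 149.6. RG split into 2 higher mice, 2 and 3, and 3 lower ones, and LGG mouse 2 was again the highest mouse. RG minus PBS was 0.90, LGG minus PBS 2.43 and RG minus LGG -1.54 (log2, SE 0.265).

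**Figure D1:**
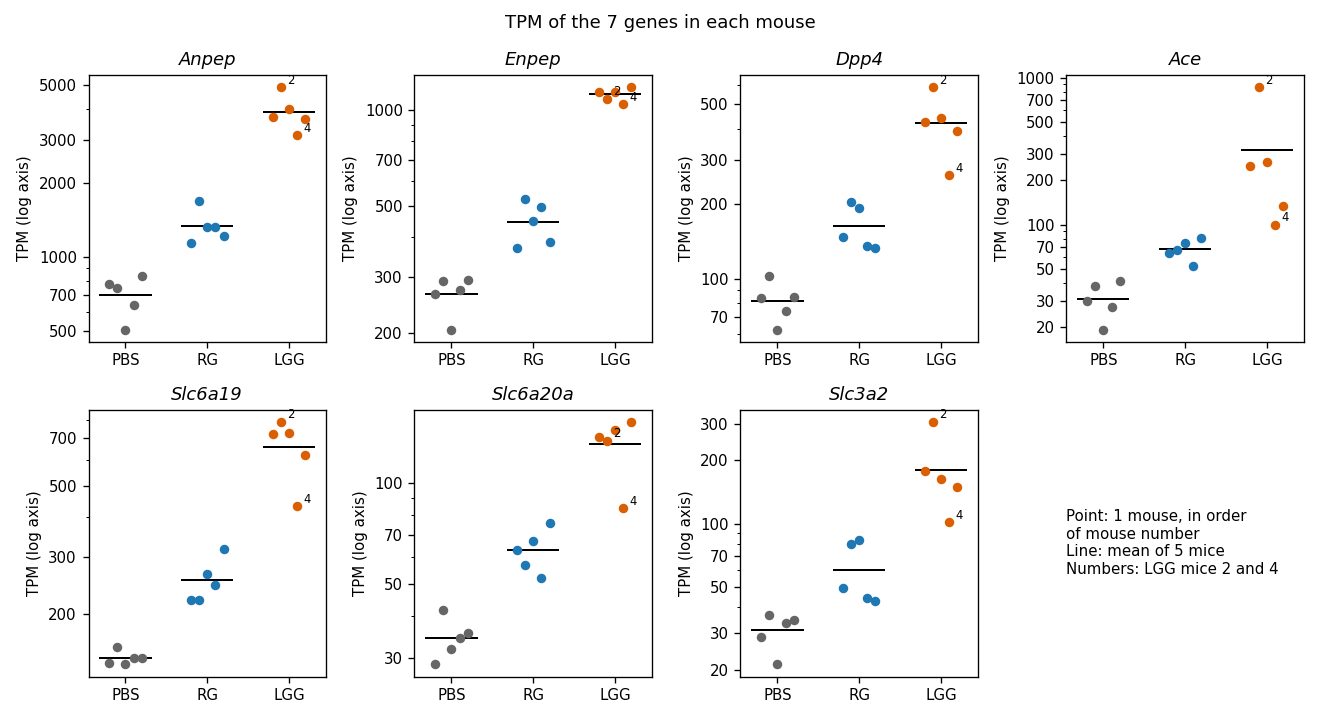
TPM of each of the 7 genes on a log axis, with 1 point per mouse in the order of mouse numbers, a line at the mean of 5 mice, and LGG mice 2 and 4 numbered. In every panel the PBS, RG and LGG points do not overlap, and LGG mouse 4 is the lowest LGG point.

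The order of the levels among the 4 genes with the highest group means was the same in all mice. Anpep exceeded Enpep, Enpep exceeded Slc6a19 and Slc6a19 exceeded Dpp4 in 5 of 5 mice of each group. Among Ace, Slc6a20a and Slc3a2, which followed, neighbours changed places between mice: each was above the next in only 3 or 4 of 5 mice. In LGG, Dpp4 exceeded Ace in 4 of 5 mice. The exception was LGG mouse 2, where Ace, at 865 TPM, lay above both Slc6a19, at 787, and Dpp4, at 588. Together the 7 genes took 0.0988 to 0.147% of all TPM in PBS, 0.205 to 0.285% in RG and 0.516 to 0.869% in LGG.

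**Figure D2:**
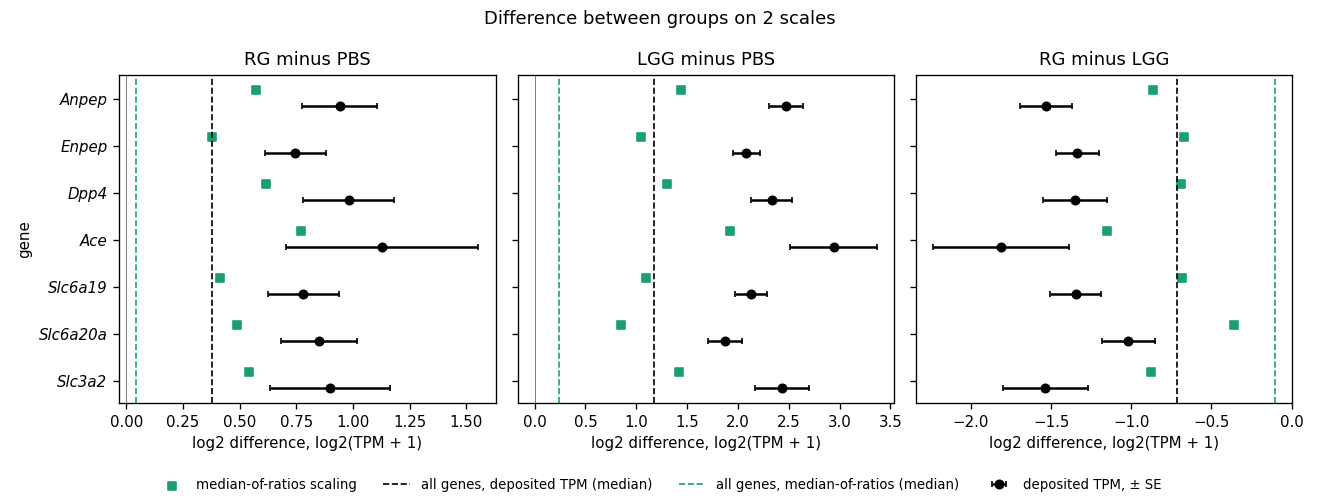
Difference between groups in log2(TPM + 1) for each gene, as deposited (circles, with bars of ± 1 SE) and after median-of-ratios scaling (squares), with dashed lines at the median of all genes tested on each scale. For RG minus PBS the circles run from 0.75 to 1.13, and each square lies closer to 0 than its circle in all 3 panels.

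LGG mouse 4 was the lowest LGG mouse in all 7 genes, and LGG mouse 2 the highest in Anpep, Dpp4, Ace, Slc6a19 and Slc3a2. Averaged over the 7 genes, LGG mouse 2 was 0.56 above its group mean in log2 and LGG mouse 4 was at -0.60. PBS mouse 3, at -0.35, was the lowest PBS mouse in 6 of the 7 genes, with Slc6a20a, lowest in PBS mouse 1, as the exception.

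Lct, the lactase of the proximal small intestine, was at 87.5, 489, 41.6, 3.32 and 23.3 TPM in LGG mice 1 to 5. Of the 5 genes fixed as proximal markers 3 were listed, and their summed TPM was 5.78 to 34.7 in PBS, 21.3 to 71.6 in RG and 31.8 to 636 in LGG. Car1, a carbonic anhydrase abundant in the colon, was at 22.0, 12.1, 392, 25134 and 2549 TPM in LGG mice 1 to 5, beside 2.38 to 620.2 in PBS and 1.06 to 943 in RG. Slc26a3, an anion exchanger of the colon, was at 418 TPM in LGG mouse 4 and at 64.2 to 99.5 in the other LGG mice. LGG mouse 2 was thus the mouse with the most Lct and LGG mouse 4 the one with the most Car1 and Slc26a3, of the LGG mice. Whether the place along the gut from which the tissue came had a part in the values of the 7 genes was not tested. Without both mice, the LGG minus PBS differences of the 7 genes ran from 2.05 (Slc6a20a) to 2.74 (Ace).

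**Figure D3:**
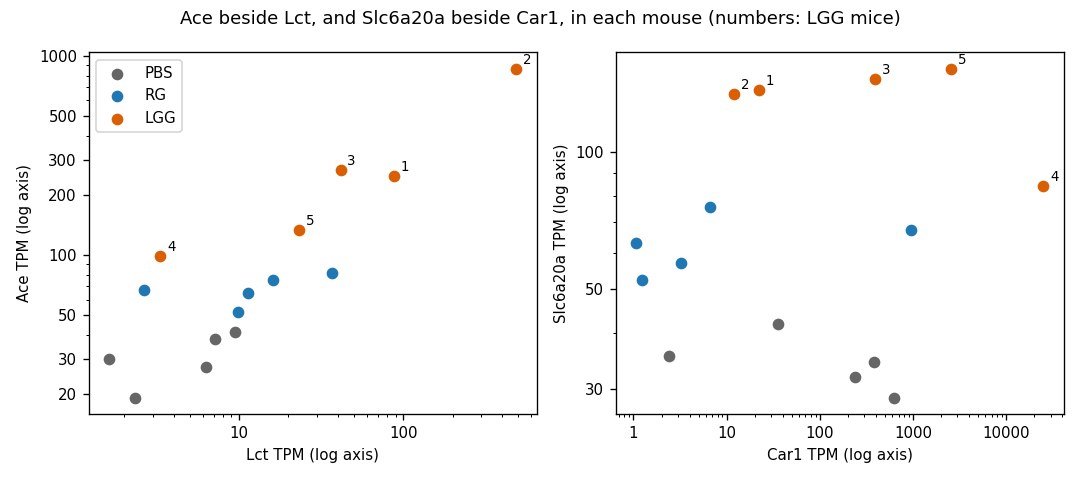
TPM of Ace against Lct (left) and of Slc6a20a against Car1 (right) in each mouse, both axes logarithmic, with the LGG mice numbered. LGG mouse 2 has the highest Ace (865) and Lct (489), and LGG mouse 4 has the lowest Slc6a20a of its group (84.0) beside the highest Car1 (25134).

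Within groups the genes did not all vary alike. With group means removed, Pearson's r over the 15 libraries was above 0 in 21 of 21 pairs and above 0.5 in 12. In PBS and RG alone, 15 of the 21 pairs were above 0 and 6 below, all 6 of them pairing Slc6a19 or Slc6a20a with another gene. Dpp4 and Slc3a2 varied most alike (r = 0.940), followed by Anpep and Dpp4 (r = 0.822) and by the carriers Slc6a19 and Slc6a20a (r = 0.785), while Enpep and Slc6a19 were at 0.0468. Without LGG, Dpp4 and Slc3a2 were at 0.915, Slc6a19 and Slc6a20a at 0.693, and the negative pairs between -0.14 and -0.07. All pairs come from the same libraries and share their scaling.

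**Figure D4:**
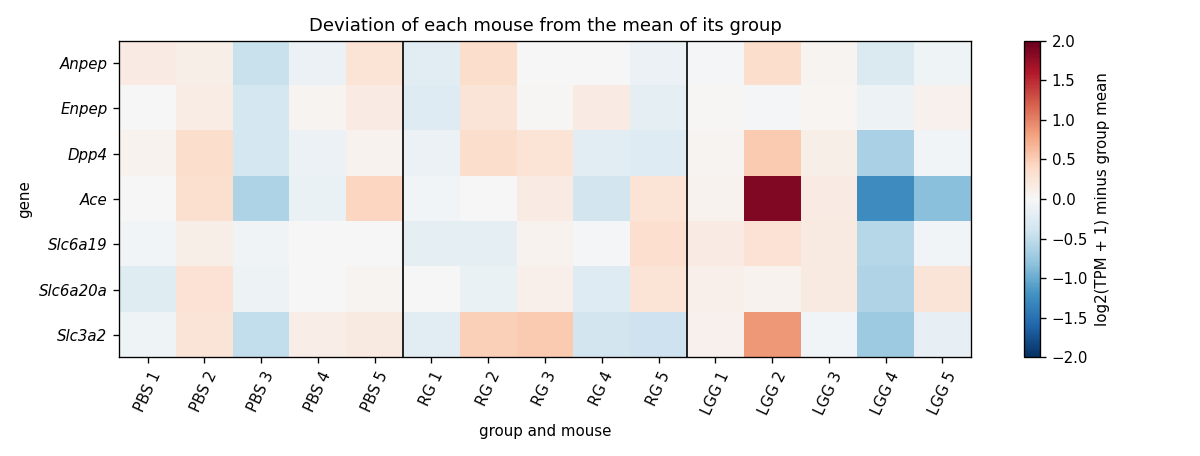
Deviation of each mouse from the mean of its own group in log2(TPM + 1), with genes in rows and mice in columns. LGG mouse 4 is below its group mean in all 7 rows, from -0.10 in Enpep to -1.25 in Ace, and Ace in LGG mouse 2 is at 1.85.

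The genes whose pattern was most like the mean of the 7 standardized profiles were Dglucy (r = 0.992), the aromatic amino acid carrier Slc16a10 (r = 0.991) and the cytosolic peptidase Xpnpep1 (r = 0.990) over the 15 libraries. Such values hold the difference between groups: the median over all genes tested was 0.755 and 741 genes exceeded 0.9. With group means removed they were Fbln1 (r = 0.912), Mttp (r = 0.912) and Slc16a10 (r = 0.907), where the median was 0.00476 and 5 genes exceeded 0.9. Slc16a10 was in both sets.

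Other genes of protein digestion and amino acid uptake were counted from 8 lists, which were drawn up with earlier results of these data known. They held 50 genes that were listed in the table, 44 of which are named by rule and were tested. Counts are of genes with an adjusted p-value under 0.05 in limma (Benjamini-Hochberg over all 3530 genes). Over all genes, 22.8% were higher in RG than in PBS, 54.7% were higher in LGG than in PBS, and RG lay below LGG in 53.5%.

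Of the 7 further brush-border peptidases measured, all 7 were higher in LGG than in PBS and 5 were higher in RG than in PBS. They had a median log2 difference of 2.17 and 0.78 and, for RG minus LGG, -1.40 with 7 of 7 lower in RG. The meprin subunit Mep1a went from 227 ± 52.1 TPM in PBS to 400.5 ± 90.8 in RG and 1019 ± 209 in LGG (SD, n = 5), with limma adjusted p = 0.0240 and 1.66e-07 against PBS. Xpnpep2, the membrane-bound aminopeptidase P, which cuts in front of proline, was at 54.2 ± 13.1 (PBS), 102 ± 13.6 (RG) and 282 ± 58.4 (LGG), with limma adjusted p = 0.0141 and 6.51e-08. Naaladl1 and Mep1b also rose against PBS in both colonized groups. Ggt1, the gamma-glutamyltransferase, and Mme, which encodes neprilysin, rose in LGG, and their RG minus PBS values were 0.40 and 0.45 with limma adjusted p = 0.112 and 0.296.

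Peptidases of the cytosol moved in the same direction as those of the membrane. All 9 measured were higher in LGG and in RG than in PBS by limma, with median differences of 1.87 and 0.66, and RG was below LGG in all 9 (median -1.12). Cndp2, a dipeptidase, was at 244 ± 44.5 TPM (PBS), 377 ± 69.7 (RG) and 937 ± 151 (LGG). Pepd, which splits dipeptides ending in proline, was at 218 ± 44.8, 365 ± 96.8 and 862 ± 234. Lap3, a leucine aminopeptidase, was at 113 ± 20.8, 222 ± 48.8 and 530.3 ± 223 (SD, n = 5).

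Of 5 further apical carriers measured, 5 were higher in LGG and 2 in RG than in PBS, with medians of 1.60 and 0.55. The oligopeptide carrier Slc15a1 was at 91.1 ± 12.6 TPM (PBS), 194 ± 25.7 (RG) and 725 ± 419 (LGG), with limma adjusted p = 0.0240 and 2.02e-07 against PBS. Its LGG minus PBS difference of 2.82 was the largest on the list. Slc3a1, the heavy chain of the cystine carrier, was at 123 ± 20.2, 173 ± 34.5 and 451 ± 38.2 TPM and rose in both. The glutamate carrier Slc1a1, the taurine carrier Slc6a6 and the proton-coupled carrier Slc36a1 rose in LGG, and in RG they were at 0.66, 0.49 and 0.55 above PBS, with limma adjusted p = 0.0998, 0.0951 and 0.196. RG was below LGG in 4 of the 5, and Slc36a1 was at -0.80 (limma adjusted p = 0.0544).

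Of the basolateral carriers and Slc3a2 partners, 4 of 11 were among the listed genes, and all 4 rose in LGG and in RG. Their medians were 2.46 for LGG minus PBS, 0.99 for RG minus PBS and -1.42 for RG minus LGG. Slc7a7, a light chain that pairs with Slc3a2, was at 54.1 ± 6.44 TPM (PBS), 86.3 ± 21.1 (RG) and 211 ± 39.5 (LGG). Slc7a8, another such light chain, was at 7.12 ± 1.65, 15.9 ± 4.95 and 59.3 ± 49.0 TPM, with LGG mouse 2 at 145 and the other LGG mice at 25.9 to 54.6. The ratio of Slc3a2 to the sum of both light chains was 0.501 ± 0.0558 (PBS), 0.574 ± 0.0891 (RG) and 0.649 ± 0.0741 (LGG) (SD, n = 5). The lowest LGG mouse, at 0.550, lay just above the highest PBS mouse, at 0.549, and RG overlapped with both. How often such ratios separate LGG from PBS was not computed, so nothing is read from this separation. Slc43a2, a carrier of large neutral amino acids, was at 18.3 ± 2.38, 42.6 ± 9.82 and 122 ± 45.7 TPM, and Slc16a10 at 12.9 ± 2.50, 25.7 ± 5.18 and 71.0 ± 25.4.

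**Figure D5:**
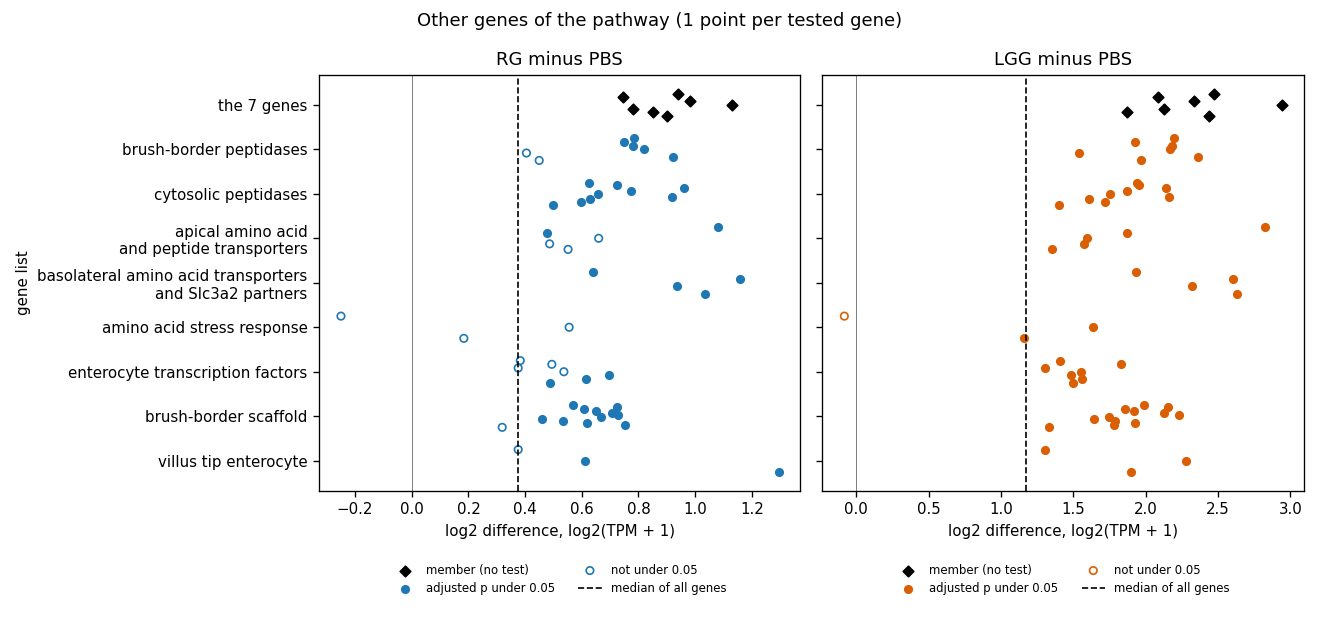
Difference in log2(TPM + 1) from PBS for the 7 genes (diamonds, not tested) and for each tested gene of the 8 lists (circles, filled where limma's adjusted p is under 0.05), with a dashed line at the median of all genes tested. In LGG the filled circle of every brush-border peptidase lies right of that line, and in RG the open circles include Ggt1 and Mme.

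Structural genes of the microvillus moved in the same direction. Of 12 scaffold genes measured, 12 were higher in LGG and 11 in RG than in PBS (medians 1.89 and 0.64), and RG was below LGG in 12 (median -1.26). Vil1, the actin bundler villin, was at 326 ± 36.9 TPM (PBS), 541 ± 92.8 (RG) and 1446 ± 41.2 (LGG) (SD, n = 5), with limma adjusted p = 0.0115 and 1.55e-08 against PBS. Relative to Vil1, none of the 7 genes had LGG above PBS, RG above PBS or LGG above RG in all mice. Anpep per Vil1 was 2.15 ± 0.227 (PBS), 2.53 ± 0.546 (RG) and 2.68 ± 0.426 (LGG), and Dpp4 per Vil1 was 0.250 ± 0.0386, 0.307 ± 0.0786 and 0.292 ± 0.0785. Slc6a20a per Vil1 was 0.107 ± 0.0172, 0.117 ± 0.0126 and 0.0904 ± 0.0197, with every LGG mouse below every RG mouse. Relative to the geometric mean of the 12 scaffold genes, Ace in RG was above PBS in all mice (0.408 ± 0.0244 against 0.285 ± 0.0515). No other gene and pair of groups separated on that ratio. How many of all genes tested separated on either ratio was not computed, so nothing is read from these counts.

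Of the enterocyte transcription factors, 8 of 14 were listed and 7 tested: 7 were higher in LGG and 3 in RG than in PBS, and RG was below LGG in 7. Their medians of 1.50, 0.49 and -1.01 lay below those of the peptidases in size. Hnf4a, a nuclear receptor of enterocytes, was at 134 ± 23.5 TPM (PBS), 173 ± 19.4 (RG) and 359 ± 88.8 (LGG). Cdx2, an intestinal homeobox factor, was at 92.5 ± 18.8, 132 ± 32.4 and 331 ± 64.7 TPM (SD, n = 5). In RG, Maf, Gata5 and Gata6 passed, while Hnf4a and Cdx2 were at 0.38 and 0.49 above PBS with limma adjusted p = 0.0878 and 0.0594. Of 3 villus tip genes measured, 3 were higher in LGG and 2, the adhesion gene Cdh1 and the nucleoside carrier Slc28a2, in RG than in PBS (medians 1.90 and 0.61), and RG was below LGG in 2 (median -0.93).

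Genes of the amino acid stress response, which cells switch on when amino acids run short, were few in the table. Of 11 on that list 3 were measured, and none passed for RG minus PBS, where none of the 3 had an unadjusted p-value under 0.05 in limma either. Trib3 and Sesn2 rose in LGG by 1.63 and 1.16, and Atf5 was at -0.08 (limma adjusted p = 0.798). Under median-of-ratios scaling Atf5 was at -1.07 for LGG minus PBS (limma adjusted p = 0.000460), and Sesn2 no longer passed, at 0.26 (limma adjusted p = 0.224).

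The counts for RG depended on which mice were in the fit and on the scaling. Of the 44 named genes of the lists, 32 were higher in RG than in PBS with all mice, but 7 when PBS mouse 3 was left out, 14 when PBS mouse 5 was, and 11 when either RG mouse 2 or RG mouse 3 was. The 7 genes that passed whichever single mouse was left out were Cdhr2, Ezr, Lta4h, Slc43a2, Vil1, Xpnpep1 and Xpnpep2. In the absence of RG mice 2 and 5 and PBS mouse 1, a setting chosen after the data were seen, limma called 0 of the 44 higher, and 31 had a higher value with an unadjusted p under 0.05. Under median-of-ratios scaling 4 of the 44 passed, and under upper-quartile scaling 10. Calls over all 3530 genes fell too, to 45 and 133 higher in RG under these scalings, beside 804 as deposited. Without PBS mouse 3, PBS mouse 5, RG mouse 2 or RG mouse 3, limma called 40, 124, 150 and 177 genes in either direction, beside 948 with all mice. The LGG minus PBS count of each of the 8 lists was the same with any single mouse left out. After median-of-ratios scaling, all 7 brush-border peptidases, 9 cytosolic peptidases, 4 basolateral carriers and 12 scaffold genes still passed for LGG minus PBS, as did 4 of 5 apical carriers, 6 of 7 transcription factors and 1 of 3 villus tip genes. For RG minus LGG after the same scaling, 4 of 7 brush-border peptidases, 4 of 9 cytosolic peptidases, 2 of 5 apical carriers, 4 of 4 basolateral carriers, 3 of 7 transcription factors, 11 of 12 scaffold genes and 1 of 3 villus tip genes passed as lower. The background on that scale was 1178 of all 3530 genes higher for LGG minus PBS, and 592 of 3530 lower for RG minus LGG.

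Signs of tissue composition moved with the groups. Summed TPM of the 3 listed enterocyte markers (Vil1, Alpi and Krt20, of 7 fixed) was 934 to 1540.3 in PBS, 1547 to 2178 in RG and 4525 to 5089 in LGG. Summed TPM of the 7 Paneth cell markers, all listed, was 43140 to 56654 in PBS, 42391 to 52550.1 in RG and 808 to 10653 in LGG. The 3 listed goblet markers of 7 summed to 17374 to 21700 in PBS, 8518 to 18034 in RG and 4056 to 10081 in LGG. The part of cell composition in the differences of the 7 genes was not tested. The ratios to Vil1 and to the scaffold genes given above are descriptions. Of 5 ileal markers only the bile acid exporter subunit Slc51a was listed, at 182 to 338 TPM in PBS, 211 to 502 in RG and 485 to 1122 in LGG, and Fabp6, Slc10a2, Fgf15 and Slc51b were not analysed here. PBS mouse 1 stood apart in smooth muscle and liver markers, with sums of 1929.6 and 653 TPM beside at most 972 and 187 in the other PBS mice. RG mouse 5 was the single library with any TPM of the kidney gene Kap, at 8.21. RG mouse 2 stood apart in T cell markers, with a sum of 174 TPM beside at most 12.9 in the other RG mice. When these 3 mice were dropped together, a choice made after the data were seen, the RG minus PBS differences of the 7 genes ran from 0.72 (Slc6a19) to 1.04 (Ace).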

How the data were processed

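RNA was measured in ileum of 15 mice, 5 in each group, taken from the labels. The authors deposited 1 table of TPM. The build was GRCm38, also called mm10, per the submitters' processing notes, while aligner, counter, strand setting and treatment of shared reads are not named in the sources used here. The listed genes of a library summed to 585771 to 655207 TPM in PBS, 586801 to 660553 in RG and 480498 to 525074 in LGG. TPM had thus been computed over more genes than the 4178 listed, and the rule for listing was not stated. The listed part was smaller in every LGG library than in any PBS or RG library. Medians, shares and scalings over all genes rest on listed genes only. The depth of each library is unknown, because TPM does not keep it, and counting errors could therefore not be computed. One column header (PBS mouse 1) carries an extra suffix and another (RG mouse 5) names no lane.

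Gene coordinates came from GENCODE mouse release 21, in which 4173 identifiers were found. Genes had to reach a TPM of 1 in 5 libraries, and 3530 did, all 7 members among them. limma-trend with robust shrinkage (limma 3.58.1, R 4.3.3) was fitted to log2(TPM + 1) in all 15 libraries with the 3 groups as the only term. P-values are two-sided and were adjusted by Benjamini-Hochberg over all genes tested, with 0.05 as the threshold. Differences on this scale understate changes of low genes. RG minus PBS and LGG minus PBS share the PBS libraries. The fit was run on simulated data with independent noise and upward shifts in a small part of the genes. That setting differs from these data, in which most of the table moved.

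The members, the gene lists and the marker lists were chosen with earlier results of these data known. Named were the 7 members, every listed gene of a pathway list with 8 or fewer listed, otherwise the 8 with the highest mean TPM, and the 3 genes most like the members on each of 2 correlation scales. Values of 1 named list gene are not reported here. Promoter windows came from RefSeq. Alternatives were a pseudocount of 0.1, no filter, median-of-ratios and upper-quartile scaling, removal of length and GC trends, fits of only the groups compared, a replicate block, each library left out, and 2 sets of libraries left out, added after the data were seen.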

Additional observations from a re-analysis of the deposited data

Results flagged for a closer look

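A single mouse lay far from the other 4 of its group (Dixon's test on TPM, 95% level) in 15 of 153 gene and group pairs. Chance gives about 1 in 20 for normally distributed values in independent pairs. These pairs share the same mice, so no surplus is read from the count. Among the 7 genes, Ace was at 865 TPM in LGG mouse 2, with the other LGG mice at 99.5 to 267. Slc6a20a was at 84.0 TPM in LGG mouse 4, with the others at 134 to 152. Among the related genes, LGG mouse 2 stood high in Mme (141 TPM, others 21.6 to 48.0), Slc36a1 (27.7, others 5.82 to 9.11), Slc7a8 (145, others 25.9 to 54.6) and Slc9a3r1 (2056, others 1543 to 1692). LGG mouse 4 stood high in Slc6a6 (114 TPM, others 54.7 to 60.0) and Cdh1 (471, others 293 to 329). RG mouse 5 stood high in Slc36a1 (10.4 TPM, others 3.18 to 5.06), Klf4 (183, others 130.1 to 144), Myo1a (492, others 331 to 375) and Slc28a2 (44.9, others 12.0 to 18.2). RG mouse 2 stood high in Atf5 (42.2 TPM, others 15.2 to 20.7). PBS mouse 3 stood low in Slc43a2 (14.2 TPM, others 18.5 to 19.8) and Eps8 (35.9, others 41.3 to 43.4).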

How the results depend on the processing

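For RG minus PBS, limma changed 948 genes as reported, 605 under upper-quartile scaling, 188 with length and GC trends removed, 383 with only the groups compared, 174 with the replicate block, and 40 (without PBS mouse 3) to 1594 (without RG mouse 4) with 1 library left out. The direction changed as well: 804 were higher and 144 lower as reported, but 133 and 472 under upper-quartile scaling. With the trends removed, 171 were higher and 17 lower. With RG mice 2 and 5 and PBS mouse 1 dropped together, a setting added after the data were seen, limma called 0 genes, with 965 at an unadjusted p under 0.05. No label says that the replicate numbers pair the mice, and deviations of same-numbered mice correlated at -0.455 to 0.288. Under the block, 16 of the 44 named list genes passed for RG minus PBS, beside 32 without it. The members' median moved under median-of-ratios scaling, upper-quartile scaling and removal of length and GC trends to 0.54, 0.64 and 0.65 for RG minus PBS, and to 1.30, 1.37 and 1.77 for LGG minus PBS. For RG minus LGG it moved under the scalings to -0.69 and -0.65. Leaving out 1 library kept these medians within 0.82 to 0.97, 2.20 to 2.49 and -1.51 to -1.32. Under the scalings and the trend removal in that order, Sesn2 for RG minus PBS turned to -0.13, -0.041 and -0.12, and Atf5 for RG minus LGG to 0.46, 0.50 and 0.027. Slc28a2 for RG minus LGG turned to 0.026 and 0.064 under the 2 scalings. Atf5 for LGG minus PBS ran from -0.19 to 0.07 with 1 library left out, turning positive without PBS mouse 4 (0.072) and without LGG mouse 2 (0.046). None of these values of Sesn2, Atf5 and Slc28a2 passed the threshold on either side. The cause was not tested. TPM gives no depth, so a limit from counting could not be set.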
